A study of Mus musculus with 24 samples.

Results

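Myc and 39 genes of ribosome biogenesis, the assembly of ribosomes that begins in the nucleolus, were followed in the apex of the mouse heart 3 days after the aorta had been narrowed. They were chosen by symbol and make up 40 of the 40840 gene names in the count table. All 40 passed the filter on low counts and were among the 15027 genes tested. RNA was sequenced from 24 wild-type C57/Bl6J mice, and the question set by the design is how hypoxia changes the early gene response to pressure overload. The 4 groups of 6 mice are: transverse aortic constriction (TAC) in hypoxia, TAC in normoxia, sham surgery in hypoxia, and sham surgery in normoxia. In TAC a suture, sized by a blunt 25-G needle, narrows the arch between the innominate and the left carotid artery, so that the left ventricle pumps against pressure. How low the oxygen was and how long hypoxia lasted are not in the labels, nor are age, sex and batch, and each library holds the RNA of a mixed tissue. All 10 cardiomyocyte markers were detected, with a summed level of 39555 to 88465 CPM over the 24 mice (counts per 1000000 counts of a library, with library sizes scaled by edgeR).

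Ribosome biogenesis starts with RNA polymerase I, which copies the ribosomal RNA genes into a long precursor. Small nucleolar ribonucleoproteins (snoRNPs) modify that precursor, a large assembly called the small-subunit processome folds and cuts its small-subunit part, and other factors build the large subunit before both are exported. MYC, a transcription factor that binds DNA together with its partner MAX, is known to raise transcription of many of these genes, and cardiac muscle cells enlarge under pressure load while making more ribosomes.

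MAX and MYC bind the E-box CACGTG, so the promoter windows of the genes were searched for it. RefSeq (build GRCm38.p6) gave a window of 250 bases before to 50 bases after the start for 34 of the 40 genes, and none for Myc, Npm1, Fbl, Rrp12, Rrs1 and Bop1. CACGTG, which reads the same on both strands, stood in a window of 9 of the 34 genes (26.5%), against 2187 of all 27025 genes with a window (8.09%). Some genes had several windows, and a match in any of them counted. Of other ribosome biogenesis genes with a window 20 of 117 held it (17.1%), and of ribosomal protein genes 6 of 58 (10.3%). The 9 genes were Nop2, Utp4, Ltv1, Utp20, Pes1, Mybbp1a, Tsr1, Utp18 and Wdr43, and in 7 of them the E-box began 3 to 41 bases into the transcribed side of the start. Windows of 3 of these genes are shown because the genes rose with TAC in normoxia, and that of Nop58, which rose as well, is shown as one without the motif. They lie at chr17:71615965-71616264 (+ strand) for Wdr43, chr11:74897830-74898129 (+) for Tsr1, chr10:13193088-13193387 (-) for Ltv1 and chr1:59684756-59685055 (+) for Nop58. Each is printed 5′ to 3′ along its gene, with the E-box in capitals.
Wdr43: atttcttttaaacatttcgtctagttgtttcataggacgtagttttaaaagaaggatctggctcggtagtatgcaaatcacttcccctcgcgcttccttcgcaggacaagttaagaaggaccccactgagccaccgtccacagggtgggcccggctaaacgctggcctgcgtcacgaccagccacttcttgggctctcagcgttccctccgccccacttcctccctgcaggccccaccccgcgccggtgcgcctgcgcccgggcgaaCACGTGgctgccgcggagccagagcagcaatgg
Tsr1: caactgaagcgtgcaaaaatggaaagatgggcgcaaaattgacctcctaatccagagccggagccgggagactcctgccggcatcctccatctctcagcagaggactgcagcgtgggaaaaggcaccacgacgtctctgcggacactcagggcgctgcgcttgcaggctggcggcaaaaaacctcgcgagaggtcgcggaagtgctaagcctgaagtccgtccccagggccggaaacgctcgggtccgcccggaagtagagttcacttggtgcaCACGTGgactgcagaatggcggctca
Ltv1: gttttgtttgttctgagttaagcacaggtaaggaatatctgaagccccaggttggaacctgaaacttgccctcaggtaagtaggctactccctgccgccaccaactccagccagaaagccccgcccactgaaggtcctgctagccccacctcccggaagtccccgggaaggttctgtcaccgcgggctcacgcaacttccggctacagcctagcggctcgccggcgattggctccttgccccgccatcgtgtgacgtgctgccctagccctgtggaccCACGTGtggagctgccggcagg
Nop58: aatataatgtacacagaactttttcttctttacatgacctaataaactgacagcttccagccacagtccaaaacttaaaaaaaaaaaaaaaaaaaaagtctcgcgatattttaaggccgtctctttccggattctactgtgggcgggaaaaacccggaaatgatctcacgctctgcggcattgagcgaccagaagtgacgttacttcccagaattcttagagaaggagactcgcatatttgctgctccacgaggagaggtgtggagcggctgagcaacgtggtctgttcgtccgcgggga
The E-box begins 18 bases after the start in Wdr43, 25 in Tsr1 and 29 in Ltv1. With TAC in normoxia 5 of the 9 genes with the motif were called higher, with a median log2 change of 0.59 over the 9. Of the 25 genes without it 15 were called higher, with a median of 0.47. A match is a run of letters and shows no binding.

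Total counts per library lay between 10136915 and 15058159. The 40 genes took 0.112 to 0.163% of the counts in hypoxia TAC mice, 0.123 to 0.293% in normoxia TAC mice, 0.124 to 0.130% in hypoxia sham mice and 0.128 to 0.135% in normoxia sham mice. Mice numbered 2 and 4 of the normoxia TAC group stood apart from the rest. The mean log2 level of the 39 genes other than Myc lay 1.15 and 1.12 above the normoxia sham mean in these mice, against -0.04 to 0.34 in the other 4 mice of that group. They were the highest pair of their group for 37 of the 40 genes, and their best correlation with any other library was the lowest of all (0.953 and 0.947). Counts of the 40 genes called are therefore given with and without this pair. The sham groups were tight. The median SD of log2 CPM over the 40 genes was 0.27 after TAC in hypoxia and 0.56 after TAC in normoxia, against 0.14 in hypoxia sham and 0.12 in normoxia sham mice.

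**Figure D1:**
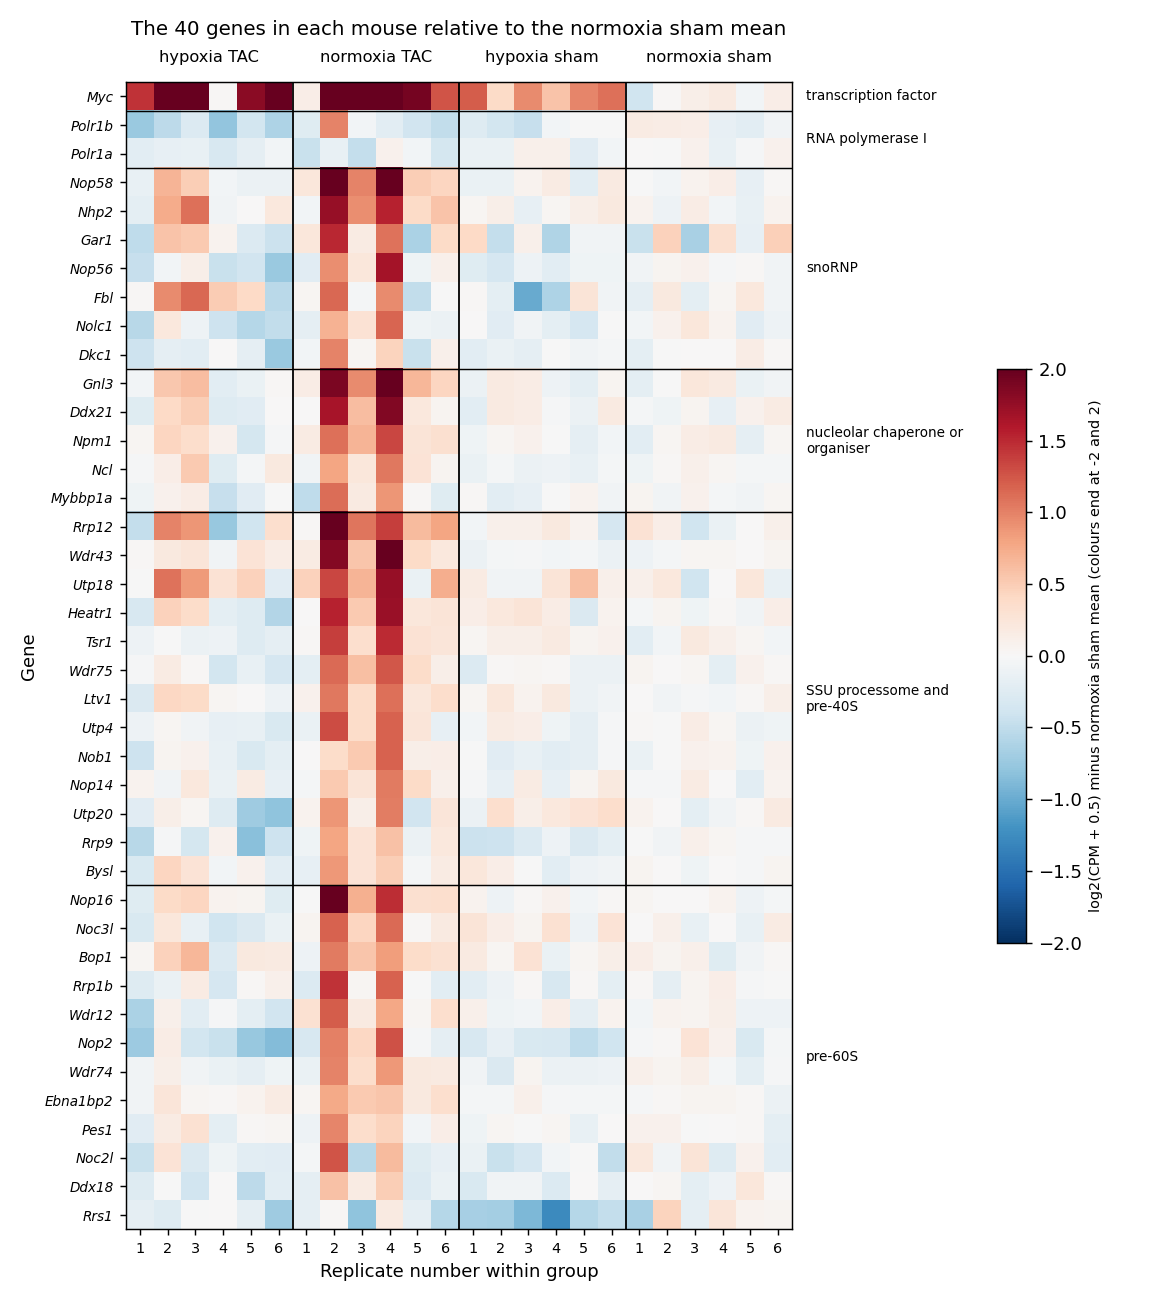
Level of each of the 40 genes (rows, grouped by role) in each of the 24 mice (columns), as log2(CPM + 0.5) minus the normoxia sham mean of that gene, with colours that end at -2 and 2. Normoxia TAC mice 2 and 4 form the darkest columns, and most sham cells stay pale, with Myc higher and Rrs1 lower in hypoxia sham mice.

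Myc was higher after TAC in normoxia, and its level differed widely from mouse to mouse. Its lowest, median and highest levels were 4.24, 22.6 and 320.4 CPM in normoxia TAC mice, against 2.79, 4.06 and 4.42 CPM in normoxia sham mice. All but 1 of the TAC mice lay above every sham mouse, from 9.86 CPM upwards, and the mouse at 4.24 CPM lay within the sham range. The log2 change was 4.32 ± 0.87 (SE, n = 6 each; edgeR quasi-likelihood adjusted p = 0.00163). Without normoxia TAC mice 2 and 4, at 87.2 and 320.4 CPM, it was 1.92 ± 0.60 (adjusted p = 0.0388). In bulk tissue a change in RNA per cell and a change in the number of cells that hold it cannot be told apart.

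In hypoxia the TAC mice had 3.91, 22.2 and 81.5 CPM of Myc (lowest, median, highest), against 5.18, 7.93 and 9.55 CPM in hypoxia sham mice. Again 5 of the 6 TAC mice lay above every sham mouse, and 1 lay below all of them. The log2 change of 2.15 ± 0.80 did not pass in the fit of all 24 libraries (adjusted p = 0.0786). It passed in a fit of the 12 hypoxia libraries alone (2.15 ± 0.58, adjusted p = 0.0293) and in a fit without normoxia TAC 2 and 4 (2.15 ± 0.53, adjusted p = 0.00896).

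After sham surgery every hypoxia mouse had more Myc than every normoxia mouse. The levels were 5.18, 7.93 and 9.55 CPM in hypoxia sham and 2.79, 4.06 and 4.42 CPM in normoxia sham mice (lowest, median, highest). Of all tested genes 2.79% had all 6 hypoxia sham mice above all 6 normoxia sham mice. The log2 change was 0.96 in both fits, with SE 0.84 and adjusted p = 0.845 over all 24 libraries, and with SE 0.16 and adjusted p = 0.000643 in the 12 sham libraries alone. The fit over all libraries holds 1 estimate of spread per gene, and Myc varied far more in TAC mice than in sham mice.

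Between both TAC groups Myc did not separate. Hypoxia TAC mice had 3.91, 22.2 and 81.5 CPM and normoxia TAC mice 4.24, 22.6 and 320.4 CPM, so that the medians lay close together. The log2 change of -1.21 ± 0.75 was not called (adjusted p = 0.307), and it turned to 1.19 ± 0.58 without normoxia TAC 2 and 4 (adjusted p = 0.203). The difference between the TAC responses in hypoxia and normoxia was -2.16 ± 1.12 (adjusted p = 0.271) with all mice and 0.23 ± 0.81 (adjusted p = 0.897) without that pair.

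**Figure D2:**
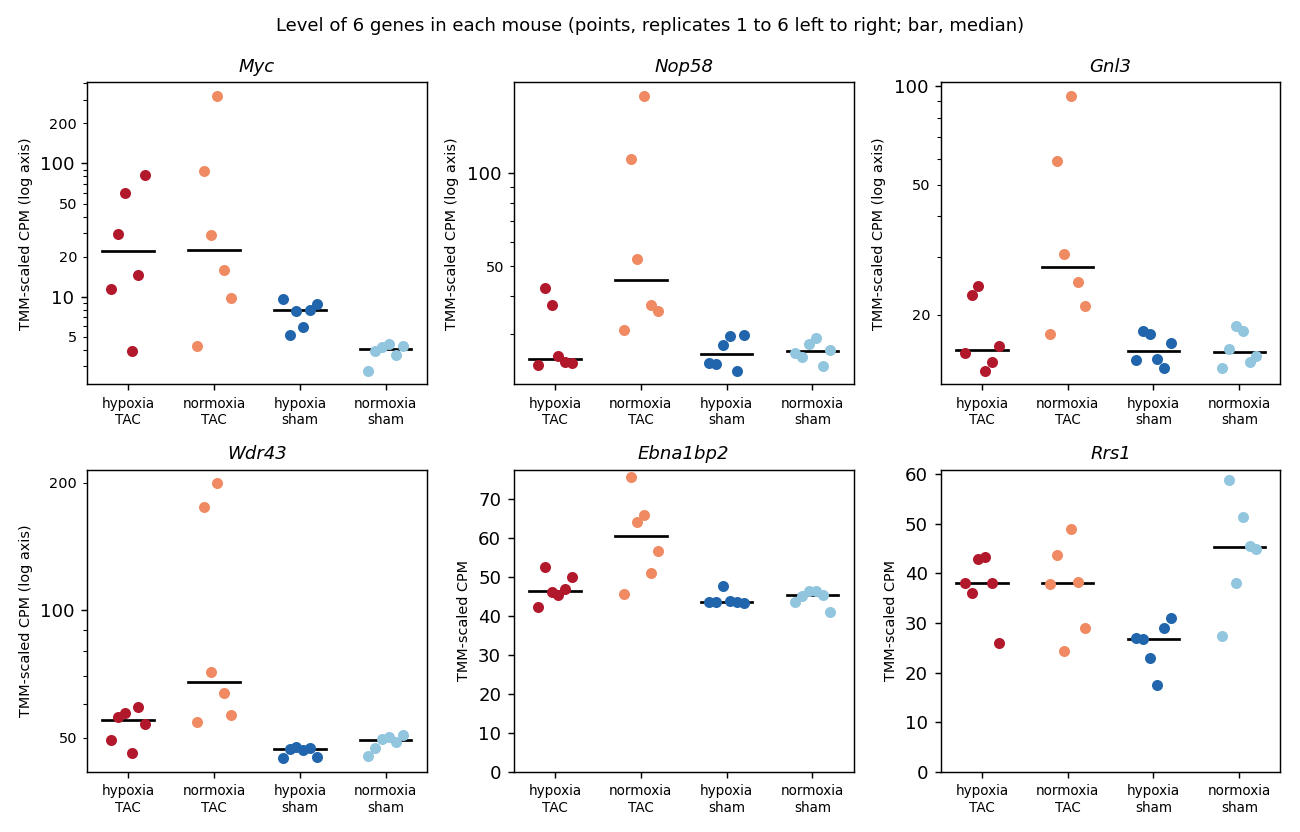
TMM-scaled CPM of Myc, Nop58, Gnl3, Wdr43, Ebna1bp2 and Rrs1 in each mouse, with replicates 1 to 6 from left to right within a group and bars at the medians (log axes for the first 4 genes, axes from 0 for the other 2 genes). In normoxia TAC 5 of 6 mice exceed every normoxia sham mouse for Myc, and 6 of 6 do so for Nop58 and Wdr43. The median of Rrs1 is lower in hypoxia sham than in the other 3 groups.

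With TAC in normoxia, many ribosome biogenesis genes were higher. Of the 40 genes 24 rose and none fell, where 27.4% of all tested genes were called (16.8% higher and 10.6% lower). The median log2 change was 0.54 over the 40 genes and 0.01 over all genes, and 38 of the 40 changes were positive. Without normoxia TAC 2 and 4 the count was 5 higher (Myc, Nop58, Gnl3, Wdr43 and Ebna1bp2) and 1 lower (Polr1a), at a median of 0.17, so that the other 19 rises were not called, where 14.3% of all tested genes were called. In the 12 normoxia libraries alone 8 of the 24 calls were lost. They were Nop56, Utp4, Nob1, Ncl, Nop14, Wdr74, Noc3l and Wdr75, with edgeR adjusted p from 0.0502 (Wdr75) to 0.128 (Nop56). The share of all genes called in that fit is not given here. Normoxia TAC 2 exceeded every sham mouse for 38 of the 40 genes, normoxia TAC 4 for 37, TAC 3 for 30, TAC 6 for 24, TAC 5 for 20 and TAC 1 for 4. The number of genes above the sham range thus differed widely between TAC mice and was smallest in mouse 1. The share of counts on mitochondrial ribosomal RNA was 3.98 to 5.72% in normoxia TAC mice, against 2.93 to 3.71% in normoxia sham mice, with no overlap. The part of this difference in the results was not tested.

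By role, the genes called higher were Myc, 3 of 7 snoRNP genes, 4 of 5 nucleolar chaperones and organisers, 10 of 13 small-subunit factors and 6 of 12 large-subunit factors, with neither of the RNA polymerase I subunits. Among the small-subunit factors all 13 had a positive change. Only Nop58 and Wdr43 had all 6 TAC mice above all 6 sham mice, which 5.04% of all genes had, and none had all 6 below, which 3.86% of all genes had.

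Neither core subunit of RNA polymerase I was called with TAC in normoxia. Polr1a, the largest subunit, had 29.0, 34.0 and 42.9 CPM in normoxia TAC mice, against 36.4, 40.6 and 43.2 CPM in normoxia sham mice (lowest, median, highest). Of the TAC mice 4 of 6 lay below all sham mice, with a log2 change of -0.23 ± 0.09 (adjusted p = 0.0704). Without normoxia TAC 2 and 4 the change was called, at -0.33 ± 0.09 (adjusted p = 0.0169). Polr1b, the next largest subunit, had 9.11, 11 and 26.2 CPM in TAC and 11.1, 13.3 and 14.6 CPM in sham mice. Its change was 0.03 ± 0.19 (adjusted p = 0.929), and it was -0.30 without that pair. The 26.2 CPM stood in mouse 2.

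Of the snoRNP proteins, Nop58 and Nop56 are core proteins of the box C/D particles that guide ribose methylation, and Fbl (fibrillarin) is their methyltransferase. Nop58 had 31.0, 45.1 and 178 CPM in normoxia TAC mice, against 23.7, 26.5 and 29.2 CPM in sham mice, with no overlap. It rose by 1.49 ± 0.32 (adjusted p = 0.00198), and by 0.56 ± 0.16 without normoxia TAC 2 and 4 (adjusted p = 0.0199). Nop56 was called at the edge of the threshold (0.60 ± 0.23, adjusted p = 0.0490), and only in 6 of the 24 fits that left out 1 mouse. Fbl was not called. It had 3.49, 5.16 and 11.9 CPM in TAC and 4.39, 5.04 and 5.97 CPM in sham mice, with a log2 change of 0.41 ± 0.29 (adjusted p = 0.314).

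The box H/ACA particles, which convert uridine to pseudouridine, hold the enzyme DKC1 with NHP2 and GAR1. Nhp2 had 19.6, 34.9 and 69.8 CPM in normoxia TAC mice, against 18.3, 20.6 and 22.7 CPM in sham mice. All TAC mice but the lowest lay above the sham mice, with a rise of 1.003 ± 0.24 (adjusted p = 0.00496). That call was lost without normoxia TAC 2 and 4 (0.51, adjusted p = 0.0952). Dkc1 (0.26 ± 0.16), Gar1 (0.71 ± 0.39) and Nolc1 (0.38 ± 0.19), a chaperone of snoRNPs, were not called. Gar1 rested on 6 to 54 counts per library.

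Among the nucleolar chaperones and organisers, Gnl3 encodes nucleostemin, a nucleolar GTPase. It had 17.5, 27.9 and 93.4 CPM in normoxia TAC mice, against 13.7, 15.3 and 18.4 CPM in sham mice, and only TAC mouse 1 fell within the sham range. Gnl3 rose by 1.38 ± 0.29 (adjusted p = 0.00193), and by 0.58 ± 0.16 without normoxia TAC 2 and 4 (adjusted p = 0.0215). Npm1, nucleophosmin, which carries ribosomal proteins and nascent subunits, had 85.1, 109 and 192 CPM in TAC and 65.7, 78.4 and 86.2 CPM in sham mice. It rose by 0.71 ± 0.16 (adjusted p = 0.00341), a call lost without that pair (0.36, adjusted p = 0.0530). The helicase gene Ddx21 (0.94 ± 0.26) and nucleolin, Ncl (0.45 ± 0.15), rose as well. Mybbp1a, a nucleolar partner of polymerase I regulation, had 39.1, 59.97 and 121 CPM in TAC and 53.1, 55.7 and 59.1 CPM in sham mice, on both sides of the sham range, and was not called (0.36 ± 0.19, adjusted p = 0.150).

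Small-subunit factors, the largest class, gave the largest number of calls (10 of 13). Wdr43, a component of the processome, had 54.3, 67.6 and 199 CPM in normoxia TAC mice, against 45.1, 49.3 and 50.7 CPM in sham mice, with no overlap. It rose by 1.09 ± 0.24 (adjusted p = 0.00270), and by 0.34 ± 0.08 without normoxia TAC 2 and 4 (adjusted p = 0.00784). The other 9 factors that rose were Rrp12 (1.15 ± 0.30), Utp18 (0.997 ± 0.27), Heatr1 (0.89 ± 0.25), Tsr1 (0.75 ± 0.19), Wdr75 (0.65 ± 0.18), Ltv1 (0.60 ± 0.15), Utp4 (0.59 ± 0.19), Nob1 (0.45 ± 0.14) and Nop14 (0.43 ± 0.14). Nob1 is the nuclease that makes the final cut at the end of the small-subunit RNA, and Ltv1, Tsr1 and Rrp12 act on late small-subunit particles. Rrp9 (0.32 ± 0.15), Bysl (0.31 ± 0.14) and Utp20 were not called, and Utp20 had the largest p. It had 11.3, 16.9 and 30.5 CPM in TAC and 12.8, 14.98 and 16.9 CPM in sham mice, and its change was 0.41 ± 0.19 (adjusted p = 0.110).

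Among large-subunit factors Ebna1bp2 had the smallest p. It had 45.7, 60.4 and 75.7 CPM in normoxia TAC mice, against 40.9, 45.2 and 46.4 CPM in sham mice, and all TAC mice but 1 lay above the sham mice. Its rise was 0.42 ± 0.09 (adjusted p = 0.00256), and 0.28 ± 0.08 without normoxia TAC 2 and 4 (adjusted p = 0.0242). Nop16 had 23.3, 34.1 and 106 CPM in TAC and 21.8, 23.7 and 24.6 CPM in sham mice, again with 1 TAC mouse in the sham range. It rose by 1.06 ± 0.25 (adjusted p = 0.00415), a call lost without that pair (0.36, adjusted p = 0.0580). Of the complex of Pes1, Bop1 and Wdr12, which is needed to process the large-subunit RNA, Bop1 (0.55 ± 0.16) and Wdr12 (0.54 ± 0.15) rose and Pes1 (0.34 ± 0.14, adjusted p = 0.0612) missed the threshold. Noc3l (0.60 ± 0.18) and Wdr74 (0.47 ± 0.14) rose as well. Nop2 (0.48), Rrp1b (0.55) and Noc2l (0.30) were not called. The helicase gene Ddx18 had the largest p, at 13.6, 16.8 and 25.0 CPM in TAC and 14.4, 16.7 and 19.4 CPM in sham mice (0.15 ± 0.14, adjusted p = 0.442).

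With TAC in hypoxia few of these genes were called. Of the 40 genes 1 rose and none fell, where 11.1% of all tested genes were called (6.46% higher and 4.68% lower). The median log2 change was 0.03 over the 40 genes and 0.01 over all genes. No gene had all 6 TAC mice above all 6 sham mice, which 2.31% of all genes had. Hypoxia TAC mice 2 and 3 exceeded every hypoxia sham mouse for 29 and 24 genes, and the other 4 mice for 4 to 8 genes. Those 4 mice lay below every sham mouse for 14 to 20 genes. The SD over hypoxia TAC mice was larger than over hypoxia sham mice for 36 of the 40 genes.

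The gene that rose was Rrs1, which in yeast brings the smallest ribosomal RNA and its proteins into the large subunit. It had 26.1, 38.1 and 43.4 CPM in hypoxia TAC mice, against 17.5, 26.9 and 30.9 CPM in hypoxia sham mice, and 1 TAC mouse lay within the sham range. The change was 0.54 ± 0.18 (adjusted p = 0.0489), called in 9 of the 24 fits that left out 1 mouse. In the 12 hypoxia libraries alone it was 0.55 ± 0.15 (adjusted p = 0.0259). DESeq2 called Rrs1 as well (adjusted p = 0.0257), and limma voom and the fit with a replicate block did not. In normoxia Rrs1 was not called with TAC. It had 24.4, 38.1 and 49.0 CPM in normoxia TAC and 27.4, 45.3 and 58.8 CPM in normoxia sham mice (-0.26 ± 0.18, adjusted p = 0.272).

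Nop58 and Gnl3, prominent in normoxia, had no detectable change with TAC in hypoxia. Nop58 had 23.8, 24.9 and 42.6 CPM in hypoxia TAC and 22.9, 25.98 and 29.98 CPM in hypoxia sham mice (0.16 ± 0.31, adjusted p = 0.763). Gnl3 had 13.5, 15.6 and 24.5 CPM in hypoxia TAC and 13.7, 15.5 and 17.9 CPM in hypoxia sham mice (0.17 ± 0.29, adjusted p = 0.726). In both genes TAC mice 2 and 3 were the highest, and the other 4 mice lay within the sham range or, for Gnl3 in TAC 4, just below it. Tsr1 alone had all 6 TAC mice below all 6 sham mice in hypoxia, which 3.36% of all genes had. It stood at 27.3, 30.2 and 32.6 CPM in TAC and 33.7, 34.99 and 37.0 CPM in sham mice, a change of -0.23 that was not called with all libraries (SE 0.19, adjusted p = 0.438) and was called in the 12 hypoxia libraries alone (SE 0.07, adjusted p = 0.0492). When normoxia TAC 2 and 4 were left out, 8 genes were called in hypoxia. Myc, Fbl, Rrs1 and Wdr43 were higher and Utp20, Polr1b, Noc3l and Tsr1 lower, where 3358 of 15283 tested genes were called.

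**Figure D3:**
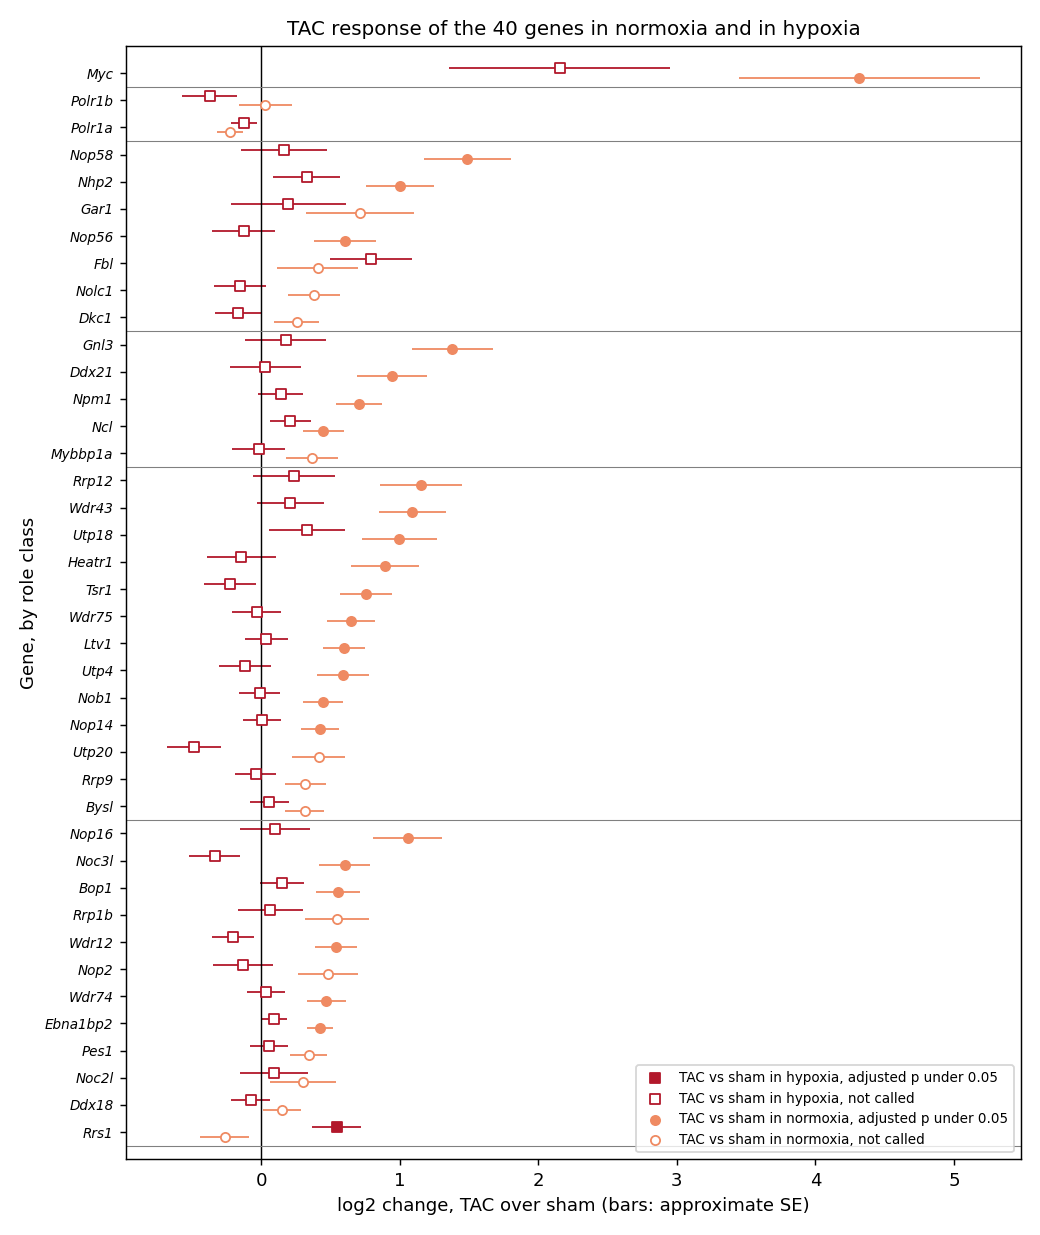
The log2 change with TAC over sham for each of the 40 genes, by role class, in hypoxia (squares) and normoxia (circles). Bars are approximate SE, and filled symbols have an adjusted p under 0.05. In normoxia 24 genes are filled and all to the right of 0, and in hypoxia Rrs1 alone is filled.

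Few of these genes differed detectably between hypoxia and normoxia after sham surgery. None of the 40 was called in the fit of all 24 libraries, where 0.166% of all tested genes were called (0.0865% higher and 0.0799% lower). At an unadjusted p under 0.05 there was 1 of the 40, a count given without the share of all genes. It was Rrs1, which DESeq2 called. Rrs1 had 17.5, 26.9 and 30.9 CPM in hypoxia sham and 27.4, 45.3 and 58.8 CPM in normoxia sham mice, with a log2 change of -0.79 ± 0.18 (adjusted p = 0.0626). In the 12 sham libraries alone 11.5% of 14409 genes were called, and with them 4 of the 40. Myc was higher there, and Rrs1 (-0.79 ± 0.18, adjusted p = 0.0171), Nop2 (-0.34 ± 0.08, adjusted p = 0.0102) and Rrp9 (-0.28 ± 0.07, adjusted p = 0.00988) were lower. In that same fit 8 of 10 endothelial, 6 of 11 macrophage, 6 of 10 fibroblast, 3 of 7 erythroid, 2 of 9 cell division and 1 of 10 cardiomyocyte markers were called higher in hypoxia sham than in normoxia sham mice, and 1 cardiomyocyte marker lower. The macrophage sums were 321 to 414 CPM in hypoxia sham and 255 to 320 CPM in normoxia sham mice, and the endothelial sums 1250 to 1463 CPM in hypoxia sham and 1026 to 1127 CPM in normoxia sham mice. Over all 24 libraries no marker of these classes was called. The part of these cells in the Myc difference was not tested.

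Rrp9, a protein of the U3 snoRNP, had 22.5, 25.1 and 28.4 CPM in hypoxia sham and 28.9, 30.1 and 33.0 CPM in normoxia sham mice, with no overlap. Nop56 did not overlap either, at 38.4, 43.2 and 45.8 CPM in hypoxia sham and 45.9, 48.5 and 51.2 CPM in normoxia sham mice. Both lay lower in hypoxia, which 2.23% of all genes did without overlap. Nop2, a methyltransferase of the large-subunit RNA, had 26.9, 30.8 and 34.5 CPM in hypoxia sham and 31.1, 38.5 and 46.7 CPM in normoxia sham mice, with 1 normoxia mouse in the hypoxia range.

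After TAC, hypoxia mice had lower levels of many of these genes than normoxia mice, but this count rests on the fit of all 24 libraries. In that fit 24 of the 40 genes were called lower and none higher, where 11.1% of all tested genes were called (6.41% lower and 4.66% higher). The median log2 change was -0.62 over the 40 genes and -0.02 over all genes. The same normoxia TAC mice enter this comparison and that of TAC against sham in normoxia. In a fit of the 12 TAC libraries alone no gene of 14267 was called, none of the 40 among them, while 25 of the 40, and 16.6% of all genes, had an unadjusted p under 0.05. With a spread of its own for each group (limma voom) 1 of the 40, Wdr12, was called, among 0.652% of all genes. With normoxia TAC 2 and 4 left out it was 3 (Tsr1, Wdr12 and Nob1), among 9.41% of all genes, with a median of -0.20. Leaving out normoxia TAC 4 alone gave 13 of the 40 genes, and leaving out hypoxia TAC 5 alone gave 14. Both counts are given without the share of all genes called, so a drop in the 40 genes cannot be set apart from one over all genes. Beside these genes, 3 of 11 macrophage and 1 of 3 lymphocyte markers were lower in hypoxia TAC than in normoxia TAC mice, and 6 of 10 endothelial, 2 of 7 erythroid and 1 of 12 cell division markers were higher. The endothelial sums were 931 to 1267 CPM in hypoxia TAC and 840 to 937 CPM in normoxia TAC mice. With normoxia TAC 2 and 4 left out, no macrophage marker and 6 of 10 endothelial markers were called. In the 12 TAC libraries alone no marker was called, and no lymphocyte marker was tested. Mitochondrial ribosomal RNA took 2.03 to 3.92% of the counts in hypoxia TAC and 3.98 to 5.72% in normoxia TAC mice, again with no overlap. The part of these differences in the results was not tested.

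Tsr1, a late small-subunit factor, had 27.3, 30.2 and 32.6 CPM in hypoxia TAC mice and 33.1, 40.6 and 93.3 CPM in normoxia TAC mice. No hypoxia mouse reached any normoxia mouse, and all 6 lay below in 0.858% of all genes. The change was -0.89 ± 0.19 (adjusted p = 0.00618), and -0.35 ± 0.08 without normoxia TAC 2 and 4 (adjusted p = 0.0109). In the 12 TAC libraries alone its adjusted p was 0.148. Wdr12 had 22.1, 29.9 and 37.2 CPM in hypoxia TAC and 35.5, 43.3 and 80.8 CPM in normoxia TAC mice, where hypoxia TAC 2 lay above 1 normoxia mouse. Its change was -0.75 ± 0.15 (adjusted p = 0.00509), and -0.43 ± 0.11 without that pair (adjusted p = 0.0186).

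Nop2 had 21.01, 25.7 and 42.6 CPM in hypoxia TAC and 30.7, 44.8 and 93.6 CPM in normoxia TAC mice (-0.96 ± 0.22, adjusted p = 0.00910). Rrp9 had 16.9, 23.2 and 32.4 CPM in hypoxia TAC and 28.2, 36.3 and 53.1 CPM in normoxia TAC mice (-0.64 ± 0.15, adjusted p = 0.00910). Both genes overlapped between the groups, in hypoxia TAC 2 for Nop2 and in hypoxia TAC 2 and 4 for Rrp9. Wdr75 had 15.4, 18.7 and 22.3 CPM in hypoxia TAC and 17.2, 28.1 and 47.9 CPM in normoxia TAC mice (-0.75 ± 0.18, adjusted p = 0.0103). Noc3l had 7.28, 8.31 and 11.4 CPM in hypoxia TAC and 9.87, 12.2 and 22.7 CPM in normoxia TAC mice (-0.78 ± 0.18, adjusted p = 0.0108), where all hypoxia mice but number 2 lay below every normoxia mouse. Nop58 (-1.33 ± 0.31, adjusted p = 0.0109) and Gnl3 (-1.21 ± 0.29, adjusted p = 0.0119) had the largest falls. None of these 6 calls held without normoxia TAC 2 and 4, where the adjusted p ran from 0.0538 for Rrp9 to 0.114 for Gnl3.

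The rest of the 24 falls came from every role class but Myc itself. They were Nob1 (-0.59), Wdr43 (-0.95), Utp4 (-0.71), Heatr1 (-0.94), Utp20 (-0.70), Ltv1 (-0.50) and Rrp12 (-0.91) among the small-subunit factors, and Wdr74 (-0.55), Nop16 (-0.95) and Ebna1bp2 (-0.34) among the large-subunit factors. Further ones were Nop56 (-0.91), Nolc1 (-0.68) and Dkc1 (-0.53) of the snoRNPs, Npm1 (-0.60) and Ddx21 (-0.88), and Polr1b (-0.60). Rrs1 (0.02), Fbl (0.14) and Polr1a (0.04) were the 3 genes with a positive, uncalled change.

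Whether TAC acted differently in hypoxia and normoxia was tested as the difference between both responses. No gene of the 40 passed with edgeR, where 2.05% of all tested genes did. At an unadjusted p under 0.05 there were 21 (20 of them lower in hypoxia), against 21.1% of all genes. DESeq2 called 6, among 6.12% of all genes, and limma voom with group weights called 2, among 300 of 15027 genes. The median difference was -0.55 over the 40 genes and -0.04 over all genes. Closest to the threshold were Tsr1 (-0.98 ± 0.27, adjusted p = 0.0515), Noc3l (-0.94 ± 0.26, adjusted p = 0.0533), Wdr12 (-0.74 ± 0.22, adjusted p = 0.0617) and Utp20 (-0.90 ± 0.27, adjusted p = 0.0713). Of all 21, Rrs1 alone had the opposite sign (0.81 ± 0.25, adjusted p = 0.0761). After leaving out normoxia TAC 2 and 4, Tsr1 (-0.45 ± 0.11, adjusted p = 0.0333) and Rrs1 (1.003 ± 0.25, adjusted p = 0.0350) were called, at a median of -0.15 over the 40 genes.

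The level of Myc was set beside the mean log2 level of the other 39 genes, relative to the normoxia sham mean, in each TAC mouse. In hypoxia TAC mice 1 to 6 Myc stood at 11.4, 29.8, 60.1, 3.91, 14.7 and 81.5 CPM, and the mean of the other genes at -0.25, 0.25, 0.21, -0.16, -0.18 and -0.23. In normoxia TAC mice 1 to 6 Myc stood at 4.24, 87.2, 29.2, 320.4, 15.9 and 9.86 CPM, and the mean of the other genes at -0.04, 1.15, 0.34, 1.12, 0.06 and 0.14. The normoxia TAC mice had nearly the same order on both measures, with mice 2 and 4 exchanged and mice 5 and 6 exchanged. In hypoxia the mouse with the most Myc, number 6, had the mean next to the lowest. The other genes stood far apart in hypoxia TAC 6 and normoxia TAC 2, which had similar Myc levels. Hypoxia sham mice, with 5.18 to 9.55 CPM of Myc, had means of -0.09 to -0.04.

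**Figure D4:**
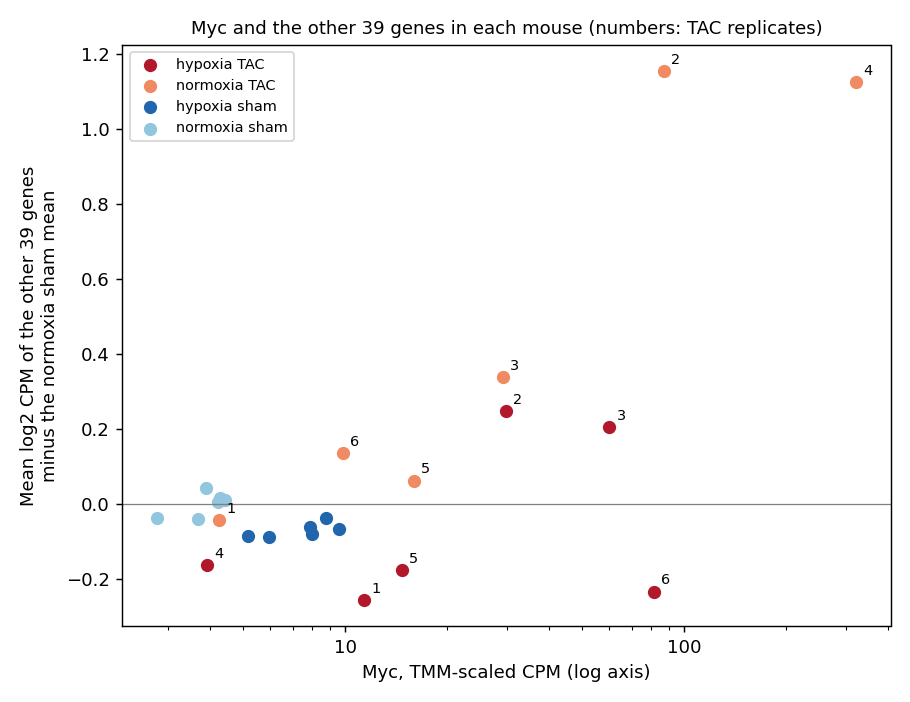
Myc level (CPM, log axis) against the mean log2 level of the other 39 genes relative to the normoxia sham mean, with 1 point per mouse and replicate numbers beside the TAC mice. Normoxia TAC 2 and 4 lie near 1.15 and 1.12, while hypoxia TAC 6 lies at -0.23 with 81.5 CPM of Myc.

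Other genes of the pathway, taken from lists, were also called higher with TAC in normoxia. Of 142 tested genes for polymerase I, small-subunit, large-subunit, snoRNP and exosome factors 49 rose and none fell, with a median log2 change of 0.27. Among them were Pno1 (0.64 ± 0.09, adjusted p = 9.89e-05), a late small-subunit factor, C1d (0.62 ± 0.09, adjusted p = 9.89e-05), a cofactor of the RNA exosome, Snu13 (0.59 ± 0.09, adjusted p = 0.000192), a snoRNP core protein, and Nifk (1.18 ± 0.21, adjusted p = 0.000505). Pno1 had 96.5, 108 and 129.6 CPM in normoxia TAC mice, against 67.7, 72.1 and 78.0 CPM in normoxia sham mice, with 59.8, 67.0 and 85.0 CPM in hypoxia TAC mice. Its normoxia TAC mice lay above all mice of the other 3 groups. Of all tested genes 16.8% were called higher with TAC in normoxia over all 24 libraries. In the 12 normoxia libraries alone 24 of the 142 genes were called higher. Without normoxia TAC 2 and 4, 21 of these 142 genes were called higher, and 52 (30 without the pair, none in the 12 TAC libraries alone) were called lower in hypoxia TAC than in normoxia TAC mice. With TAC in hypoxia 6.46% of all tested genes were called higher and 4.68% lower. In hypoxia TAC raised 2 of the 142 and lowered 6, among the higher Nop9 (0.82 ± 0.15). With hypoxia after sham surgery edgeR called none of them over all 24 libraries, with 6 at an unadjusted p under 0.05, and DESeq2 called none. In the 12 sham libraries alone 6 of the 142 were called lower and none higher, a smaller share than that of all genes called in that fit, given above.

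Cytosolic ribosomal protein genes, whose products the 40 genes help to assemble, were also called higher. Of 79 such genes 67 rose with TAC in normoxia and none fell, at a median of 0.51, and 52 did so without normoxia TAC 2 and 4, at 0.49. In the 12 normoxia libraries alone 58 rose. Rps14 had 346, 427 and 451 CPM in normoxia TAC and 223, 237 and 247 CPM in normoxia sham mice, with no overlap (0.79 ± 0.09, adjusted p = 1.25e-05). It had 232, 290.4 and 326 CPM in hypoxia TAC and 218, 232 and 243 CPM in hypoxia sham mice (0.28 ± 0.09, adjusted p = 0.0387), where TAC raised 3 of the 79 genes. Between the TAC groups 30 of the 79 were lower in hypoxia, 28 without that pair and none in the 12 TAC libraries alone. The difference between both TAC responses passed for 5 of the 79, all lower in hypoxia, among them Rps7 (-0.81 ± 0.18, adjusted p = 0.0257). Ribosomal protein genes have processed pseudogenes, and so has Npm1, so that their counts may hold or lose reads of near-identical copies.

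Of the wider MYC network 11 genes were tested. Mxd3 (1.24 ± 0.33, adjusted p = 0.00769), a repressor that competes for MAX, rose with TAC in normoxia and Mlxip (-0.48 ± 0.13, adjusted p = 0.00890) fell. There 16.8% of all tested genes were called higher and 10.6% lower. In hypoxia TAC lowered Mycn (-1.12 ± 0.31, adjusted p = 0.0241), a paralog of Myc, and raised the repressor Mxd4 (0.79 ± 0.24, adjusted p = 0.0331). With TAC in hypoxia 6.46% of all tested genes were called higher and 4.68% lower. Mycn had 3.74, 5.39 and 11.9 CPM in hypoxia TAC and 8.91, 15.5 and 17.5 CPM in hypoxia sham mice. It had 4.68, 14.4 and 22.9 CPM in normoxia TAC and 6.75, 8.92 and 11.8 CPM in normoxia sham mice, and the hypoxia response minus the normoxia response was -1.66 ± 0.43 (adjusted p = 0.0446). Of 24 metabolic and growth genes known to respond to MYC 13 rose and 2 fell with TAC in normoxia, among the rises Eif4a1 (0.92 ± 0.17), Mthfd2 (1.34 ± 0.26), Nme1 (1.43 ± 0.29) and Slc7a5 (1.69 ± 0.36). Without normoxia TAC 2 and 4 these counts were 7 and 3. Cdkn1a, a cell cycle inhibitor induced by p53, rose by 2.58 ± 0.55 in normoxia (adjusted p = 0.00216) and by 1.63 ± 0.52 in hypoxia (adjusted p = 0.0480). It was 1 of 7 tested genes of a list for the 5S RNA particle, the p53 axis and growth brakes to do so in each. With TAC in hypoxia 1 of the 7 was called lower by DESeq2 and in the 12 hypoxia libraries alone.

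Markers of other cell types moved with TAC in normoxia beside these genes. Of 11 tested macrophage markers 10 rose, with a summed level of 387 to 999 CPM in normoxia TAC against 255 to 320 CPM in normoxia sham mice. All 6 tested neutrophil markers rose (7.09 to 102 CPM against 1.16 to 4.29 CPM), while the defining marker Ly6g had a median of 0 in normoxia sham mice and was not tested. Of 10 cardiomyocyte markers 1 fell, and none of 3 tested lymphocyte and 7 erythroid markers was called. Of 10 fibroblast markers 5 rose (2989 to 5904 CPM against 3246 to 3757 CPM), of 12 cell division genes 9 (37.1 to 117 CPM against 41.8 to 62.7 CPM), and of 10 endothelial markers 4 fell (840 to 937 CPM against 1026 to 1127 CPM). Normoxia TAC 2 had the lowest cardiomyocyte sum of all mice and the highest macrophage sum, at 39555 and 999 CPM. Normoxia TAC 4 had the highest neutrophil sum, at 102 CPM, but also the highest cardiomyocyte sum, at 88465 CPM, and the lowest fibroblast sum, at 2989 CPM. Its TMM scaling factor, 0.784, was the lowest of all libraries, and a lower factor gives higher CPM for every gene. In normoxia TAC 3 the macrophage sum was 978 CPM and the mean of the 39 genes was 0.34. Without normoxia TAC 2 and 4 the rises were 7 of 11 macrophage, 3 of 6 neutrophil, 5 of 10 fibroblast and 3 of 12 cell division markers, and the falls 3 of 10 endothelial and 2 of 10 cardiomyocyte markers. With TAC in hypoxia 2 of 7 erythroid, 1 fibroblast and 1 cell division marker rose, and 2 cardiomyocyte, 2 endothelial and 1 of 3 lymphocyte markers fell. In hypoxia TAC also raised 1 macrophage and 3 neutrophil markers, with sums of 264 to 756 and 4.09 to 45.2 CPM in hypoxia TAC against 321 to 414 and 2.98 to 9.19 CPM in hypoxia sham mice. The part of these cells in the results was not tested.

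Exons of 14 of the 40 genes overlap those of a protein-coding gene on the other strand in the GENCODE annotation of build GRCm38. Among them are Gnl3 (with Pbrm1), Tsr1 (with Srr), Nhp2 (with Rmnd5b), Wdr12 (with Carf), Nop56 (with Idh3b), Rrp9 (with Parp3) and Heatr1 (with Lgals8). Whether reads were counted by strand is not given in the sources used here, so reads of such pairs cannot be told apart with certainty. Exons of Nop56, Nop58, Ncl and Gnl3 also overlap small nucleolar RNA genes on the same strand, whose reads strand would not separate.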

How the data were processed

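Whole-number counts per gene were deposited for 24 libraries of mouse heart apex, for which the labels' protocols give a kit for low RNA input and 100 ng of RNA. The authors' tools, per the submitters' processing notes, included featureCounts (Subread 2.0.0), the aligner STAR 2.7.3a and bcl2fastq 2.20.0.422, with build GRCm39. The gene annotation and the strand setting are not given in the sources used here. All counts here were used as deposited.

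Genes were kept by filterByExpr (minimum count 10, minimum total 15), which left 15027 of 40840 genes and 99.9% of the counts. edgeR 4.0.16 in R 4.3.3 (TMM scaling, robust quasi-likelihood F test, 1 mean per group over all 24 libraries, 20 residual degrees of freedom) gave every log2 change, with Benjamini-Hochberg adjustment over all tested genes and calls at an adjusted p under 0.05. All adjusted p-values are from this test unless another is named, and they measure the spread between mice, each group being 6 samples labelled as separate. The SE is the log2 change divided by the root of F and is approximate. Total counts of 10136915 to 15058159 leave genes of few counts, such as Gar1, with wide errors.

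Alternatives were other scalings and filters, DESeq2 1.42.0, limma 3.58.1 voom with group weights, only the 12 libraries compared, a replicate block, leaving out each mouse and, chosen after seeing the data, leaving out normoxia TAC 2 and 4 together. Genes described with values are Myc, up to 8 called genes with the smallest p per comparison, the genes of smallest and largest p in each role class for TAC in normoxia, and up to 4 genes per pathway list and comparison. Rrs1, Nop2 and Rrp9 in sham mice, and genes named for not overlapping, were chosen after their values were seen. The 40 genes and all lists were chosen with earlier results of these data known.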

Additional observations from a re-analysis of the deposited data

Results flagged for a closer look

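Levels of the 40 genes were checked for a mouse far from the other 5 of its group (Dixon's test at the 95% critical value for 6 samples). Of 160 groups of values 9 passed (5.62%), where chance gives about 1 in 20. Hypoxia TAC 2 stood high for Wdr74, a large-subunit factor, at 25.28 CPM with the next mouse at 22.23 CPM, and for Noc3l at 11.45 CPM with the next at 8.824 CPM. Normoxia TAC 4 stood high for Myc at 320.4 CPM with the next mouse at 87.19 CPM, and for Nob1 at 77.07 CPM with the next at 48.54 CPM. Normoxia TAC 2 stood high for Polr1b at 26.23 CPM, with the next mouse at 12.53 CPM. Hypoxia sham 5 stood low for Heatr1 at 11.49 CPM, with the nearest mouse at 14.95 CPM, and hypoxia sham 3 stood high for Ebna1bp2 at 47.75 CPM, with the nearest at 43.78 CPM. Normoxia sham 4 stood low for Wdr75 at 17.21 CPM, with the nearest at 20.08 CPM, and normoxia sham 6 stood low for Pes1 at 40.24 CPM, with the nearest at 45.97 CPM.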

How the results depend on the processing

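Counts in this section are of the 40 genes. The share of all tested genes called also differed between fits, and it is given above for some fits only. Where it is not given, a changed count cannot be set apart from a change over all genes. With TAC in normoxia 24 of the 40 genes were called, and 6 without normoxia TAC 2 and 4. In the 12 libraries alone 8 of those 24 calls were lost. With TAC in hypoxia 1 was called, against 0 with total-count scaling, with no filter on low counts and with the replicate block, 3 with DESeq2, 3 in the 12 libraries alone and 8 without normoxia TAC 2 and 4. With limma voom 1 was called as well, but it was a small-subunit factor called lower, and Rrs1 was not called. Hypoxia after sham surgery gave 0 calls, against 1 with DESeq2, 2 with limma voom, 4 in the 12 libraries alone and 1 without that pair. Hypoxia after TAC gave 24 calls, against 1 with limma voom, 0 in the 12 libraries alone and 3 without that pair. The difference between TAC responses gave 0 calls, against 6 with DESeq2, 2 with limma voom, 2 with the replicate block and 2 without that pair. Leaving out 1 mouse gave 19 to 30 calls for TAC in normoxia, 0 to 3 for TAC in hypoxia, 0 to 1 for hypoxia after sham surgery, 13 to 29 for hypoxia after TAC and 0 to 7 for the difference of responses (7 without normoxia TAC 1). Total-count scaling moved the median of all genes for TAC in normoxia to -0.11, with 16 of the 40 genes higher, 1 lower and a median of 0.42.

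The labels do not state that replicate numbers pair mice. Of 36 same-number pairs 9 correlated above 0.1, from -0.50 to 0.45. Between the TAC groups the values for numbers 1 to 6 were 0.43, 0.45, 0.24, -0.50, 0.26 and -0.33. Pairs of different numbers were not compared, so pairing is neither shown nor excluded. With the replicate block, 23 genes were called for TAC in normoxia and 23 for hypoxia after TAC. Without normoxia TAC 2 and 4 the log2 change with TAC in normoxia turned for Fbl (-0.13), Nop2 (-0.011), Nolc1 (-0.018), Dkc1 (-0.080), Rrp1b (-0.12), Ddx18 (-0.10), Polr1b (-0.30), Noc2l (-0.27) and Mybbp1a (-0.11). For Myc it turned to 1.19 for hypoxia after TAC and to 0.23 for the difference of responses. Polr1b with TAC in normoxia also turned with total-count scaling (-0.068), limma voom (-0.051) and the replicate block (-0.021). Leaving out 1 mouse gave changes of -0.30 to 0.12 for Polr1b and -0.050 to 0.44 for Noc2l with TAC in normoxia. For hypoxia after TAC it gave -1.69 to 0.19 for Myc, -0.079 to 0.11 for Rrs1, -0.029 to 0.39 for Fbl and -0.0063 to 0.11 for Polr1a. Apart from the fits with fewer libraries, the cause was not tested. Gar1 had the fewest counts of the 40 genes, 6 to 54 per library.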
